A study of Homo sapiens with 6 samples.

Results

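The genes described here encode 32 enzymes that make or interconvert serine, glycine, asparagine, arginine, proline, glutamate, alanine, methionine and cysteine, or that carry one-carbon units on folate. They were listed by name for their place in these pathways, with results of this same comparison already known, and were matched by gene symbol to the 58302 Ensembl gene IDs in the count tables. All 32 had at least 1 read, out of 32925 genes with a read in any library, and 30 of them received an adjusted p in the fit across all genes. Because the list was drawn up with this contrast in view, the differences below are given as a description of these libraries and carry no p of their own.

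The data are bulk poly(A) RNA sequencing of A375, an established human melanoma cell line, in 6 libraries. In 3 of them the cells stably carried an empty vector, and in the other 3 they stably overexpressed HMGB2, a DNA-bending chromatin protein of the high-mobility-group family. The study made its stable lines by lentiviral transduction, and each replicate was a pellet of cells. No label describes the pellets as independent transductions and the study's reporting form describes its RNA-seq replicates as technical, so the spread between them covers pellets of a line and not the spread between separately made lines.

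As background, cells build serine from a glycolytic intermediate through PHGDH, PSAT1 and PSPH, and serine hydroxymethyltransferases then split it into glycine and a one-carbon unit held on folate. A set of enzymes in the mitochondrion and a parallel set in the cytosol pass this unit between its oxidation states, and the products feed purine, thymidylate and methionine synthesis. Many of these genes, with those for asparagine and proline synthesis, are textbook targets of ATF4, a transcription factor of the response to amino acid shortage and endoplasmic reticulum stress, which binds joint C/EBP-ATF elements in promoters.

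To show such elements, the promoters of the 24 members found in the RefSeq promoter table (build GRCh38.p14, 250 bases before to 50 after the first listed start) were searched on both strands for TGATGNAA, the core of the C/EBP-ATF element. It occurred in 4 of them, in 16.7% of members with a promoter, against 3.67% of 27305 promoters in the table and 1.93% of 12764 promoters of genes with an adjusted p. The 4 were MTHFD1L at chr6:150866236-150866485 (plus strand), ASNS at chr7:97872409-97872658 (minus strand), GOT1 at chr10:99430625-99430874 (minus strand) and BCAT1 at chr12:24949102-24949351 (minus strand). The 250 bases before each start are printed because these are the members whose promoters hold the match, which stands in capitals; in GOT1 it reads on the opposite strand and so appears as the reverse complement.
MTHFD1L: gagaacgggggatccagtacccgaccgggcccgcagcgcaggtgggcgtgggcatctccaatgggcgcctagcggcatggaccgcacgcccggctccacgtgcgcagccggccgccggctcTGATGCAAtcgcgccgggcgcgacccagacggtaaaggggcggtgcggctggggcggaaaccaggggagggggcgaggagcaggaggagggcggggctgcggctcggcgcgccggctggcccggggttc
ASNS: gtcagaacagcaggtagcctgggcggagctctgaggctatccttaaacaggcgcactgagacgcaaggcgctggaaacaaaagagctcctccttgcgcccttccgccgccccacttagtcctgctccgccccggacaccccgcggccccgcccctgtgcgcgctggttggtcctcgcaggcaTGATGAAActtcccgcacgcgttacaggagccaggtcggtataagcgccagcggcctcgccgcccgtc
GOT1: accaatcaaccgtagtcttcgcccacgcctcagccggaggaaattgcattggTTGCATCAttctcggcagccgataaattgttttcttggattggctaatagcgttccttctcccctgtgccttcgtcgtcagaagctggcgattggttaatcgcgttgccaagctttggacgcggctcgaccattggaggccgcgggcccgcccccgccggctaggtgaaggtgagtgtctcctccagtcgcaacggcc
BCAT1: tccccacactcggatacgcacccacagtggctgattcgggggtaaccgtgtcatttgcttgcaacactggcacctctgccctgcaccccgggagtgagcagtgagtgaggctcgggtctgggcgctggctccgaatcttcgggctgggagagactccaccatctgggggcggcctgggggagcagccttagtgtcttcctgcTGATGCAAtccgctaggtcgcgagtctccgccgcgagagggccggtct
The first base of the match lay 129, 68, 198 and 48 bases before the start, in that order. MTHFD1L and BCAT1 carry the same 8 letters followed by T, and ASNS differs from them at the letter that the motif leaves free. The matches were described and not tested, and a match does not show that a factor binds there.

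Before the members, the libraries were compared. Between 45925053 and 56755212 reads per library were assigned to genes, and the groups did not differ in this depth (two-sided exact permutation test, p = 0.8, where 3 against 3 libraries cannot go below 0.1). HMGB2 itself (ENSG00000164104) had 7250, 7729 and 7562 normalized counts in the empty vector libraries and 15095, 16848 and 14609 under overexpression. Its log2 fold change was 1.05 with an SE of 0.10 (adjusted p = 4.4e-22 by DESeq2), so the libraries fit their labels. A normalized count is the number of reads divided by the size factor that DESeq2 gives each library. Replicate 3 of each group stood apart. The third overexpression library had 10.55% of reads mapped to several places, against 2.58% to 4.89% in the others, and leaving out the third empty vector library raised the number of genes called over the whole table from 930 to 2854. KRT5, an epithelial keratin picked out after its values were seen, had 5.05 and 11.5 normalized counts in empty vector replicates 1 and 2 but 279 in replicate 3, next to 200 to 289 in the overexpression libraries.

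The labelled cell type was checked against marker genes. Of 8 melanocytic markers, of which 5 were tested and none called by DESeq2 or edgeR or at an unadjusted p under 0.05, MITF (1381 to 1719 normalized counts) and S100B (3346 to 3841) were present, whereas MLANA, DCT and TYR had at most 11 reads in any library. The 5 tested had 0 negative values and a median log2 fold change of 0.11, with a highest of 0.37. Of these, 1 lay higher with separate groups, as did 11.1% of all genes tested. SOX10 was listed at 0 in the unstranded column used, where reads that fall in 2 genes are counted for neither. The sum of the 2 stranded columns listed 28863 to 56464 reads per library for it, which can include reads of genes on the other strand. Among 8 markers of undifferentiated melanoma, S100A6, CD44 and VIM were abundant in all 6 libraries, and AXL and NGFR were called lower under overexpression, with log2 fold changes of -0.69 (SE 0.14, DESeq2 adjusted p = 8.58e-05) and -1.06 (SE 0.18, adjusted p = 2.98e-07). The 8 genes had 4 negative values and a median log2 fold change of -0.01; none was called higher by DESeq2 or edgeR, with 2 lower and 1 higher at an unadjusted p under 0.05, and SOX9 (log2 fold change 0.42, SE 0.18) and CD44 (0.12, SE 0.09) lay higher with separate groups. For other cell types, 6 fibroblast genes summed to 3788 to 5791 normalized counts in empty vector libraries and 5290 to 6967 under overexpression, 6 keratinocyte genes to 5086 to 5507 and 5030 to 5498, and 6 immune or endothelial genes to 85.9 to 109 and 97.5 to 107. PTPRC and KRT1 were at 0 in every library and no gene of these 3 lists was called by DESeq2 or edgeR, with 1 lower and 2 higher at an unadjusted p under 0.05; their part in the members' differences was not tested.

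Across the members, the balance lay on the lower side. Of the 30 with an adjusted p, 14 were called lower and 1 higher under HMGB2 overexpression (DESeq2 adjusted p under 0.05), where 2.64% and 2.29% of the 18836 genes tested were called in those directions. By edgeR 13 were lower and 0 higher, all 13 among the 14, beside 1.52% and 1.28% of 16754 genes. This contrast helped choose the members, so nothing is read from the difference between those shares. The median log2 fold change of the 30 was -0.27, beside 0.00 over all genes tested, and the values ran from -1.53 for ASS1 to 0.37 for SHMT1. All 3 normalized counts of a group lay beyond those of the other group for 18 members on the lower side and 4 on the higher, where 10.7% and 11.1% of all genes tested showed the same. Their summed level was 4657 to 4885 TPM (reads per exon length, scaled to the same total in each library) in empty vector libraries and 3231 to 3643 under overexpression, and the ranges did not overlap. As a share of all assigned reads, the 32 genes took 0.564% to 0.584% in the former and 0.398% to 0.443% in the latter. The 14 members called lower alone took 0.363% to 0.396% and 0.195% to 0.250%, so the fall in this share lay in those 14. In bulk RNA, fewer cells with a transcript and less transcript per cell cannot be told apart.

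**Figure D1:**
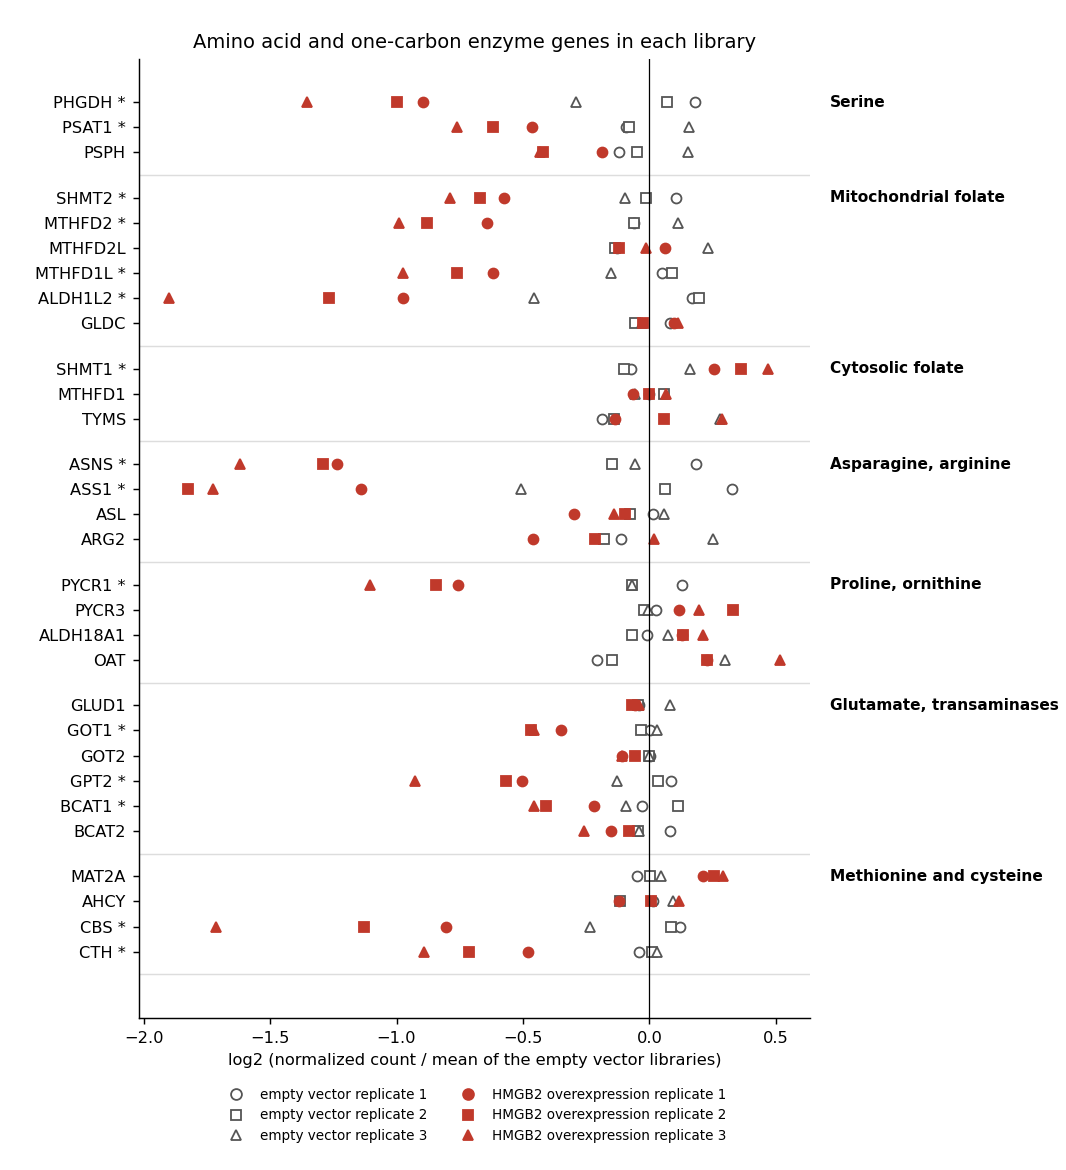
Normalized count of the 30 members with an adjusted p in each library, as log2 of the ratio to the mean of the 3 empty vector libraries (x axis), grouped by role (y axis). Open grey symbols are empty vector and filled red symbols HMGB2 overexpression, the symbol shape gives the replicate number and an asterisk marks a call at adjusted p under 0.05; by the mean of the overexpression libraries ASS1, ASNS and ALDH1L2 lie farthest to the left and SHMT1 farthest to the right.

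The serine pathway was called lower at its first 2 steps and none of its 3 members was called higher by DESeq2 or edgeR. All 3 were lower at an unadjusted p under 0.05. PHGDH, the dehydrogenase that opens the pathway (ENSG00000092621, chr1:119648411-119744218, plus strand), had 45488, 42103 and 32809 normalized counts in empty vector libraries 1 to 3 and 21592, 20102 and 15684 in overexpression libraries 1 to 3. Its mean fell from 40133 ± 6565 to 19126 ± 3072 (SD, n = 3 per group), which is -1.07 on the log2 scale (SE 0.16), and the highest overexpression library remained below the lowest empty vector library. PSAT1, the aminotransferase of the next step (ENSG00000135069, chr9:78297125-78330093, plus strand), had 38637, 38911 and 45911 against 29818, 26816 and 24319 normalized counts, a log2 fold change of -0.61 (SE 0.12). For PSAT1 the third libraries lay farthest apart, and replicates 1 and 2 alone gave a log2 fold change of -0.45. PSPH, the phosphatase that releases serine (ENSG00000146733, chr7:56011051-56051604, minus strand), had 4685, 4914 and 5659 against 4466, 3796 and 3769, a log2 fold change of -0.34 (SE 0.12), and was not called, although its groups did not overlap. Per length, PSAT1 was the highest of the 32 genes in the empty vector cells at 1352 TPM and ranked 92nd of all genes. PHGDH stood at 319 TPM (range 247 to 372) and PSPH at 134 TPM. The mean normalized counts of PSAT1 and PHGDH were close, at 41153 and 40133 with empty vector. Their gap in TPM thus rests on the exon-union lengths of 2206 and 9187 bases.

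The mitochondrial branch of one-carbon metabolism had 4 of its 6 members called lower and none called higher by DESeq2 or edgeR, or at an unadjusted p under 0.05. SHMT2, which transfers the one-carbon unit of serine to folate in the mitochondrion (ENSG00000182199, chr12:57229573-57234935, plus strand), had 35100, 32369 and 30543 normalized counts with empty vector and 21913, 20541 and 18931 with HMGB2, a log2 fold change of -0.68 (SE 0.11). MTHFD2, the dehydrogenase and cyclohydrolase of the next steps (ENSG00000065911, chr2:74186172-74217565, plus strand), had 26471, 26435 and 29851 against 17677, 14990 and 13891, a log2 fold change of -0.83 (SE 0.12). MTHFD1L, the synthetase that releases formate (ENSG00000120254, chr6:150865679-151101887, plus strand), had 6997, 7194 and 6090 against 4408, 3989 and 3441, a log2 fold change of -0.78 (SE 0.13). In all 3 genes every overexpression library lay below every empty vector library. ALDH1L2, which oxidizes the one-carbon unit to carbon dioxide (ENSG00000136010, chr12:105019784-105107643, minus strand), showed the largest difference of this branch, with 4780, 4870 and 3095 normalized counts against 2165, 1767 and 1139 and a log2 fold change of -1.33 (SE 0.23). The third library of each group was its lowest, at a log2 ratio of -0.64 to the other 2 with empty vector and -0.79 with HMGB2. The other 2 members were level: MTHFD2L, a close relative of MTHFD2, differed by -0.02 on the log2 scale (95% confidence interval -0.33 to 0.29), and GLDC, the decarboxylase of the glycine cleavage system, by 0.06 (-0.17 to 0.30). Changes smaller than these intervals were not resolved.

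None of the 3 cytosolic folate enzymes was called lower, by DESeq2 or edgeR, or had an unadjusted p under 0.05 in that direction. SHMT1, the cytosolic counterpart of SHMT2 (ENSG00000176974, chr17:18327860-18363563, minus strand), was the only member called higher, with 4870, 4776 and 5732 normalized counts with empty vector and 6116, 6597 and 7094 with HMGB2, a log2 fold change of 0.37 (SE 0.12). The groups did not overlap, but the call was made in only 7 of 14 alternative analyses, being lost with edgeR, without independent filtering and without any single library other than empty vector replicate 3. MTHFD1, which holds the cytosolic dehydrogenase, cyclohydrolase and synthetase in one protein, had 7879 to 8524 normalized counts in the empty vector libraries and 7829 to 8582 under overexpression, a log2 fold change of 0.00 (95% confidence interval -0.18 to 0.18). TYMS, which makes thymidylate, had overlapping ranges of 1370 to 1897 and 1420 to 1905 and a log2 fold change of 0.08 (SE 0.17). For TYMS the unstranded count kept just 17.2% of the reads in the sum of the stranded columns. Its exons overlap those of ENOSF1 on the opposite strand, and that sum also holds ENOSF1 reads.

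Setting related enzymes side by side within each library removes the size factor from the comparison. The ratio of SHMT2 to SHMT1 normalized counts was 7.21, 6.78 and 5.33 with empty vector and 3.58, 3.11 and 2.67 with HMGB2. For MTHFD1L over MTHFD1 it was 0.856, 0.844 and 0.773 against 0.563, 0.487 and 0.401, and for MTHFD2 over MTHFD2L 71.0, 71.4 and 62.5 against 41.7, 40.1 and 34.5. Every overexpression ratio of these 3 mitochondrial to cytosolic, or major to minor, pairs was below every empty vector ratio. Per length SHMT2 nonetheless remained the more abundant, at 9.83 times SHMT1 in TPM with empty vector and 4.77 times with HMGB2. MTHFD1L was 2.93 times and 1.72 times MTHFD1 in TPM, although it had fewer normalized counts than MTHFD1 in every library. That order in TPM rests on the exon-union lengths, 4891 bases for MTHFD1L and 17357 for MTHFD1, so which of the 2 was more abundant is uncertain. The ratios are a description of the same contrast and were not tested.

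**Figure D2:**
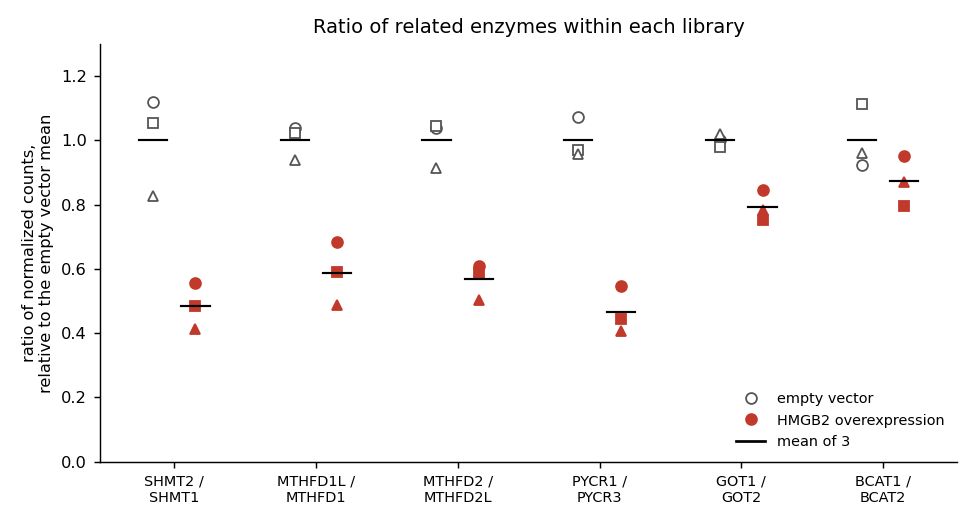
Ratio of normalized counts of related enzymes within each library, divided by the mean ratio of the empty vector libraries (y axis, from 0), for 6 pairs (x axis). Open grey symbols are the 3 empty vector and filled red symbols the 3 overexpression libraries, with symbol shape for the replicate number and a bar at the mean; the groups overlap in BCAT1 over BCAT2 and do not overlap in the other 5 pairs.

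Of the genes for asparagine and arginine, 2 of 4 were called lower and none higher by DESeq2 or edgeR, or at an unadjusted p under 0.05. ASS1, argininosuccinate synthase (ENSG00000130707, chr9:130444961-130501274, plus strand), had the largest difference of all members, with 858, 714 and 482 normalized counts against 311, 193 and 207 and a log2 fold change of -1.53 (SE 0.24). The third empty vector library was its lowest control, at a log2 ratio of -0.71 to the other 2, and without that library the log2 fold change was -1.72. ASNS, asparagine synthetase (ENSG00000070669, chr7:97851677-97872542, minus strand), was counted at 171, 155 and 136 reads with empty vector and 71, 63 and 44 with HMGB2, a log2 fold change of -1.37 (SE 0.23). Its level is uncertain, since 49.3% of its exon bases also belong to a lncRNA gene, ENSG00000284707, on the same strand, and reads that fall in 2 genes are counted for neither. ASL, the lyase that follows ASS1, differed by -0.18 (SE 0.12) and ARG2, the mitochondrial arginase, by -0.21 (SE 0.17). Neither was called, although every overexpression library of ASL lay below every empty vector library. For ARG2 the count kept 33.6% of the reads in the sum of the stranded columns, which also holds reads of the overlapping VTI1B.

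Of the 4 tested members for proline and ornithine, 1 was called lower and none higher by DESeq2 or edgeR, with 1 lower and 2 higher at an unadjusted p under 0.05. PYCR1, a mitochondrial reductase of the last step (ENSG00000183010, chr17:81932384-81942412, minus strand), had 12154, 10590 and 10588 normalized counts against 6571, 6195 and 5161, a log2 fold change of -0.89 (SE 0.13). Its cytosolic relative PYCR3 lay the other way, with 1401 to 1452 normalized counts with empty vector and 1542 to 1789 with HMGB2 (log2 fold change 0.22, SE 0.11), and ALDH18A1, which catalyses the first step from glutamate, with 11056 to 12200 and 12661 to 13400 (0.16, SE 0.09). Neither PYCR3 nor ALDH18A1 was called, although the groups did not overlap in either gene, as for 11.1% of all genes tested on the higher side. The ratio of PYCR1 to PYCR3 normalized counts was 8.37, 7.56 and 7.46 in empty vector libraries and 4.26, 3.46 and 3.16 in overexpression libraries. OAT, which joins ornithine and proline metabolism, differed by 0.33 (SE 0.16) with overlapping ranges and was not called by group alone with all 6 libraries. It was called higher with a replicate block, a term for the third replicates or replicates 1 and 2 alone. Without empty vector replicate 3 it was also called higher, at a log2 fold change of 0.51. Under these settings 6.09% to 8.71% of all genes tested were called higher. PRODH, which breaks proline down, had 1 read in empty vector replicate 3 and 1 in overexpression replicate 2 and none in the other 4 libraries, so no difference was detectable at this depth.

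The transaminases and glutamate enzymes had 3 of 6 tested members called lower and none higher by DESeq2 or edgeR, or at an unadjusted p under 0.05. GPT2, the mitochondrial alanine aminotransferase (ENSG00000166123, chr16:46884362-46931289, plus strand), had 6906, 6658 and 5964 normalized counts against 4596, 4395 and 3420, a log2 fold change of -0.65 (SE 0.14). GOT1, the cytosolic aspartate aminotransferase (ENSG00000120053, chr10:99396870-99430624, minus strand), had 5839, 5689 and 5943 against 4565, 4212 and 4240, a log2 fold change of -0.42 (SE 0.09). BCAT1, the cytosolic branched-chain aminotransferase (ENSG00000060982, chr12:24810024-24949101, minus strand), had 11366, 12558 and 10866 against 9950, 8743 and 8463, a log2 fold change of -0.36 (SE 0.11). The groups did not overlap in any of the 3, but the GOT1 call was lost without overexpression replicate 2, and the BCAT1 call with edgeR, without independent filtering and without any single library other than empty vector replicate 3. The mitochondrial counterparts of GOT1 and BCAT1 were not called, with log2 fold changes of -0.09 (SE 0.08) for GOT2 and -0.16 (SE 0.10) for BCAT2. In both genes every overexpression library still lay below every empty vector library, as in 10.7% of all genes tested. The ratio of GOT1 to GOT2 was 0.514, 0.503 and 0.524 against 0.435, 0.386 and 0.403, whereas the BCAT1 to BCAT2 ratio overlapped between the groups. GLUD1, glutamate dehydrogenase, differed by -0.06 (SE 0.09). GLS2, a glutaminase, had 2, 3 and 1 reads against 2, 1 and 2 and received no adjusted p; 77.1% of its exon bases overlap SPRYD4 on the opposite strand.

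In methionine and cysteine metabolism the 2 enzymes of transsulfuration, which makes cysteine from homocysteine, were called lower. CTH, the second of them (ENSG00000116761, chr1:70411218-70439851, plus strand), had 3034, 3139 and 3191 normalized counts against 2238, 1901 and 1683, a log2 fold change of -0.69 (SE 0.13). CBS, the first (ENSG00000160200, chr21:43053191-43076943, minus strand), had 433, 423 and 339 against 228, 182 and 122, a log2 fold change of -1.17 (SE 0.23). The groups did not overlap in either gene, but the CBS level is uncertain because 34.1% of its 50-base words also occur in other genes, among them the near copy ENSG00000274276. MAT2A, which makes S-adenosylmethionine, had 6501 to 6949 normalized counts with empty vector and 7795 to 8224 with HMGB2 (log2 fold change 0.25, SE 0.09) and AHCY, which clears S-adenosylhomocysteine, 15456 to 17856 and 15417 to 18159 (0.00, SE 0.11). MAT2A was not called by group alone with all 6 libraries, despite separate ranges. It was called higher with a replicate block, a term for the third replicates, replicates 1 and 2 alone, or without empty vector replicate 3. Under these settings 6.09% to 8.71% of all genes tested were called higher. AHCY was the fourth most abundant member at 312 TPM and its ranges overlapped.

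The order of mean levels within the empty vector cells differed for some members under overexpression. After PSAT1 at 1352 TPM and SHMT2 at 518 TPM (range 459.5 to 574), whose ranges were separate, PHGDH, AHCY and PYCR1 formed a group of overlapping neighbours at 319, 312 and 280 TPM. ALDH18A1, GOT2, OAT, MTHFD2 and GOT1 followed at 224, 220, 185, 175 and 175 TPM, each overlapping the next. With HMGB2, PHGDH and PYCR1 stood at 149 and 148 TPM, below ALDH18A1, OAT and GOT2 at 245, 228 and 202 TPM, while AHCY was at 307 TPM. At the lower end, the mean of ASS1 was 16.6 TPM beside 13.7 TPM for ASL with empty vector, where their ranges overlapped (11.0 to 21.4 and 13.2 to 14.4 TPM), and 5.59 TPM beside 11.9 TPM with HMGB2. CBS went from 4.29 to 1.87 TPM, below MTHFD2L at 2.90 TPM. Positions in this order rest on which reads were counted and on the exon-union lengths. These lengths were 2206 bases for PSAT1, 9187 for PHGDH, 11443 for MTHFD2, 14283 for GLUD1 and 17357 for MTHFD1. Beside TYMS, ARG2 and GLS2, the unstranded count kept 57.3% of the reads in the sum of the stranded columns for MTHFD2, 66.6% for MTHFD2L, 71.8% for MTHFD1, 74.0% for GLUD1 and 76.2% for PYCR1, and ASNS and CBS share sequence with other genes.

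**Figure D3:**
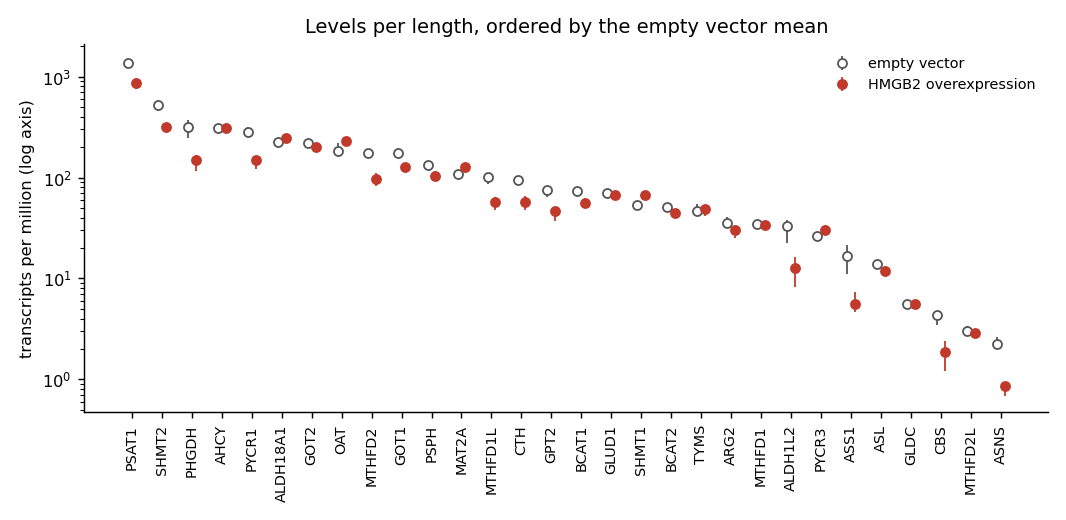
Level per length in TPM (log y axis) of the 30 members above 0.1 TPM in every empty vector library, ordered by the empty vector mean (x axis). Symbols are means of 3 libraries and bars run from the lowest to the highest library; PSAT1 is highest at 1352 TPM with empty vector and 873 with HMGB2, and ASNS lowest of those plotted at 2.26 and 0.857 TPM.

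The members called lower did not spread evenly over the replicates. Overexpression replicate 3 was the lowest of its group for 12 of the 14 (85.7%), where it was lowest for 39.3% of all genes tested and 56.8% of the 498 genes called lower. Empty vector replicate 3 was the lowest of its group for 9 of the 14 (64.3%), beside 40.9% and 55.4%. Of the 16 other members tested, the third replicates were lowest for 2 and 1. PHGDH, ALDH1L2 and CBS were among those lowest in replicate 3 of both groups, with log2 ratios to the other 2 of -0.42, -0.64 and -0.34 with empty vector and -0.41, -0.79 and -0.75 with HMGB2, whereas PSAT1 and MTHFD2 were higher in empty vector replicate 3 (0.24 and 0.17) and lower in overexpression replicate 3 (-0.22 and -0.23). Every one of the 14 had a negative log2 fold change without each library in turn. Because the groups were separate in all 14, that sign was all but fixed in advance. Without empty vector replicate 3, 14 were again called lower. In that fit 9.46% of all genes tested were called lower, in place of 2.64% with all 6 libraries. The part of the third libraries in these values was not tested.

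Other genes of the same pathways were called lower at about the share seen over all genes. Of 80 further genes for glycine and folate, methionine and sulfur, glutamine, proline and arginine, branched-chain and purine metabolism, 71 were tested, 2 were called lower (2.82%, beside 2.64% of all genes tested) and none higher by DESeq2 or edgeR, with 4 lower and 1 higher at an unadjusted p under 0.05, and their median log2 fold change was 0.01. With a term for the third replicates 5 were called lower, and with replicates 1 and 2 alone 7. Under those settings 8.61% and 9.44% of all genes tested were called lower. The 2 were ODC1, the first enzyme of polyamine synthesis, with 7249, 6661 and 7662 normalized counts against 4568, 4086 and 4504 (log2 fold change -0.71, SE 0.11, DESeq2 adjusted p = 4.92e-09), and GFPT1, which opens hexosamine synthesis with glutamine as its nitrogen donor, with 10432, 10589 and 8375 against 6381, 5774 and 5134 (-0.77, SE 0.14, adjusted p = 2.79e-06). The lists of 17 glycine and folate, 16 methionine and sulfur, 12 branched-chain and 11 purine genes tested had no call by either tool, with 0, 1, 0 and 1 genes lower and none higher at an unadjusted p under 0.05. These lists, like the members, were drawn up with earlier results of these data known, and the difference in share between them and the members was not tested.

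In a list of 15 genes of ATF4 and the stress response that it serves, 11 were called lower and none higher by DESeq2. By edgeR 10 were lower and none higher, and at an unadjusted p under 0.05 the numbers were 13 and 0. Over all genes tested, 2.64% were called lower and 2.29% higher by DESeq2, and 1.52% and 1.28% by edgeR. This list was also drawn up with earlier results of these data known, so nothing is read from the difference in share. The median log2 fold change of the 15 was -0.57. TRIB3, a pseudokinase that restrains ATF4, had 29430, 25257 and 28817 normalized counts against 13628, 11905 and 9495 (log2 fold change -1.25, SE 0.15, DESeq2 adjusted p = 1.86e-14). NUPR1, a stress-induced chromatin protein, had 663, 593 and 223 against 109, 110 and 65.3 (-2.38, SE 0.35, adjusted p = 2.61e-09), with the third empty vector library well below the other 2. CEBPG, a partner of ATF4, had 5655, 5715 and 5555 against 4040, 3455 and 3249 (-0.66, SE 0.11, adjusted p = 1.74e-06), and PPP1R15A, which brings protein synthesis back after stress, 7545, 6878 and 4328 against 3035, 3015 and 1949 (-1.23, SE 0.22, adjusted p = 4.39e-06). ATF4 itself, named here for the list and after its values were seen, had 32208, 29993 and 31058 normalized counts against 23320, 24068 and 22124, which differed by -0.42 on the log2 scale (SE 0.09, DESeq2 adjusted p = 0.000194). That call was lost without empty vector replicate 1 or overexpression replicate 1. ATF4 is also controlled at translation, which read counts do not measure.

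**Figure D4:**
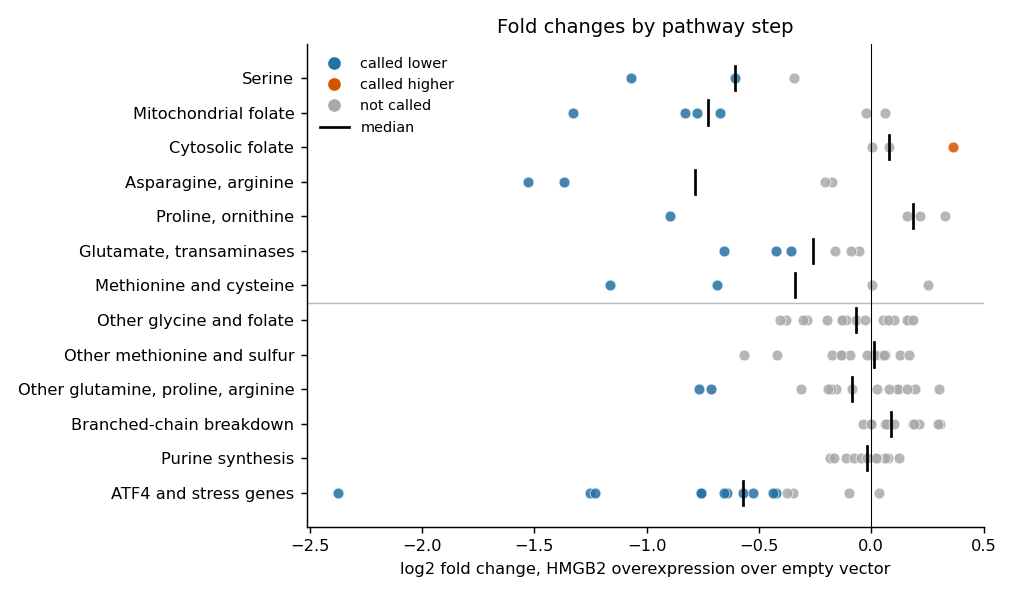
DESeq2 log2 fold change of HMGB2 overexpression over empty vector (x axis) for the members by role, above the grey line, and for other pathway and stress lists below it (y axis). Each point is a gene with an adjusted p, blue where called lower, orange where called higher and grey otherwise, and the black bar is the median of the list; the medians lie at -0.73 for mitochondrial folate, 0.08 for cytosolic folate and -0.57 for ATF4 and stress genes.

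The promoters were then set against the calls. The C/EBP-ATF core TGATGNAA was in 4 of the 10 members called lower that have a promoter in the table and in none of the 14 others. GLS2, which received no adjusted p, is among those others. This split rests in part on calls that some settings did not make. The BCAT1 call was lost with edgeR, among other settings, and the GOT1 call without overexpression replicate 2. The split was not tested. Those 4 had log2 fold changes of -0.78 (MTHFD1L), -1.37 (ASNS), -0.42 (GOT1) and -0.36 (BCAT1), so they span small and large differences among the members. With the longer form TGATGNAAT the matches were MTHFD1L and BCAT1 alone, 8.33% of members with a promoter against 1.02% of the table and 0.548% of promoters of genes with an adjusted p. The AP-1 element TGANTCA was in 0 of 24 member promoters and 7.76% and 5.18% of those sets, the E-box CACGTG in 4 (16.7% against 7.43% and 9.67%), and the NF-Y box CCAAT in 13 (54.2% against 35.7% and 36.4%). The NF-Y box was in 6 of the 10 members called lower and 7 of the 14 others, and the E-box in 2 and 2. No E-box or NF-Y box overlapped a C/EBP-ATF match. E-boxes were in MTHFD1L and BCAT1, called lower, and in MTHFD1 and ALDH18A1, which were not. PHGDH, PSAT1, MTHFD2, ASS1, CBS and CTH, all called lower, had no C/EBP-ATF match in these 300 bases, which says only that the letters are not in this window. PSPH, SHMT2, ALDH1L2, PYCR1, PYCR3, PRODH, GPT2 and BCAT2 were not in the table.

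**Figure D5:**
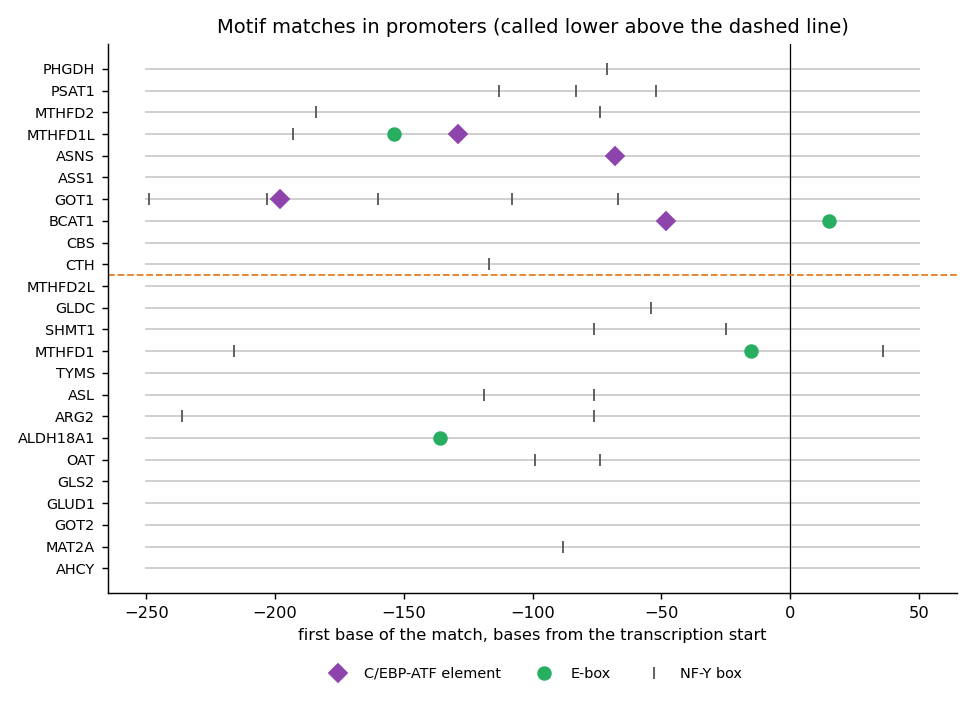
First base of each motif match relative to the transcription start (x axis, in bases) in the promoters of 24 members (y axis), with members called lower above the dashed line. Diamonds are C/EBP-ATF matches, circles E-boxes and ticks NF-Y boxes, and grey lines show the 300 bases searched; all 4 diamonds lie above the dashed line, between 48 and 198 bases before the start. The calls of GOT1 and BCAT1 were not made in every alternative analysis.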

How the data were processed

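Poly(A) RNA of 3 empty vector and 3 HMGB2-overexpressing A375 cell pellets was sequenced. The submitters' processing notes name bcl2fastq 2.20, FastQC, Trimmomatic, STAR and the build GRCh38, with other versions and the annotation release not given in the sources used here. The authors deposited raw counts per gene for each library in the layout of STAR's gene table, in which a read is counted when it maps to 1 place and 1 gene. The unstranded column was used, since both strands took about equal shares (50.1% to 50.2% in one), as in a library that does not mark strand. The 4 summary lines were left out of totals, and 10.68% to 11.37% of reads were ambiguous between genes. Of the 58302 gene IDs, 57532 matched GENCODE release 44, which gave symbols, coordinates and exon lengths; the rest held 0.0575% of assigned reads.

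Groups were compared with DESeq2 1.42.0 (R 4.3.3; defaults, Wald test, Benjamini-Hochberg adjustment over 18836 genes left after independent filtering; 14086 genes with a count were set aside for a low mean and 3 for an outlying count). Fold changes are unshrunken. TPM used exon-union lengths. The members and lists were chosen with earlier results of these data known, so no p is given for members or over lists. All 32 members are named; each library's value is given for called members, for PHGDH, PSAT1, PSPH, SHMT2, MTHFD2 and ASNS, and for members under 50 mean normalized counts. Other genes were named where called, up to 4 per pathway or stress list by adjusted p. Promoters came from RefSeq (GRCh38.p14); 24 members matched, and 7 had several starts, of which the first listed was taken.

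The 14 alternatives were edgeR 4.0.16 (quasi-likelihood), TMM factors, a filter of 10 counts in 3 libraries, no independent filtering, the sum of both stranded columns, a replicate block, a term for the third replicates, replicates 1 and 2 alone, and leaving out each library. The fits were tested on simulated data. Intervals are 95% Wald intervals of the log2 fold change. No 2 libraries of the same group agreed within sampling noise. Depth was 45925053 to 56755212 assigned reads, and error bars cover pellets of a line.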

Additional observations from a re-analysis of the deposited data

Results flagged for a closer look

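For 3 members most of the reads in the sum of the 2 stranded columns lie outside the unstranded counts. TYMS had 56122 reads over the 6 libraries in that sum, ARG2 18671 and GLS2 111, of which the unstranded count kept 17.2%, 33.6% and 9.91%. On the summed counts the log2 fold changes were 0.10 for TYMS (SE 0.15), -0.05 for ARG2 (SE 0.13) and 0.26 for GLS2 (SE 0.49), and none was called by DESeq2. Because the libraries do not mark strand, the sum also holds reads of the overlapping genes ENOSF1, VTI1B and SPRYD4, and the 2 sources cannot be told apart.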

How the results depend on the processing

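Among members, 14 were called lower with all 6 libraries and 12 to 15 under the alternatives; 12 of the 14 were called lower in every alternative, the exceptions being BCAT1 and GOT1. All 196 log2 fold changes of the 14 under the alternatives were negative. Of 420 member values tried, none of a called member changed sign. The groups were separate in every called member, so a change of sign was hardly possible there. Only 1 value moved by more than the spread between replicates, PSAT1 at -0.45 with replicates 1 and 2 alone. The 13 member calls of edgeR were all among the 15 of DESeq2. The number called higher, 1 with all libraries, was 0 with edgeR and 0 without independent filtering, 4 with a term for the third replicates (ALDH18A1, MAT2A and OAT added) and 4 with replicates 1 and 2 alone, and 0 to 3 without single libraries. The median log2 fold change of -0.27 was -0.20 with replicates 1 and 2 alone and -0.32 to -0.22 without single libraries. Over all genes, 930 calls became 470 with edgeR, 2733 with the third-replicate term, 2621 with replicates 1 and 2 alone and 363 to 2854 without single libraries, the highest without empty vector replicate 3, and the share of genes called lower ran from 1.13% to 9.46% over all alternatives. Of the other pathway genes, 2 called lower became 5 with the third-replicate term, 7 with replicates 1 and 2 alone and 2 to 4 without single libraries, and 0 called higher became 2, 5 and 0 to 5 in that order. Under the first 2 of these settings, 8.61% and 9.44% of all genes tested were called lower and 8.71% and 8.01% higher. The ATF4 list had 8 to 13 called lower, and HMGB2 stayed between 0.98 and 1.09. Separate groups were seen in 22 to 27 members, with 27 for replicates 1 and 2 alone. Fewer libraries separate more easily, and the share over all genes was not computed for these settings. Nothing is therefore read from that range. The longer motif TGATGNAAT was in 2 member promoters in place of 4. The cause of these differences was not tested.

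Same-numbered samples deviated together only weakly (correlations of 0.04, 0.09 and 0.23 for replicates 1, 2 and 3), so the numbers were not taken as pairs. With a replicate block the calls over all genes became 1826, members called higher 3 (MAT2A and OAT added), members called lower 15 (PSPH added) and other pathway genes called higher 1. In that fit 6.46% of all genes tested were called lower and 6.09% higher. Not every library correlated best with its own number: overexpression replicate 1 did so with empty vector replicate 2, and overexpression replicate 2 with empty vector replicate 1.

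With 3 pellets of a line per group, the SE of the log2 fold changes of tested members ran from 0.08 to 0.24, and members with few reads (PRODH, GLS2) could not be compared.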
